A study of Mus musculus with 2 samples.

Results

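The Dlk1-Dio3 imprinted miRNA cluster was represented by 42 named mature miRNAs, which were looked up by name among the 1976 listed in the deposited files. All 42 were listed. Of these, 21 reached the minimum level for a comparison in at least 1 library, 12 were above 0 but under that minimum, and 9 were listed at 0 in both libraries. The series compared small RNA from exosomes of mouse bone marrow-derived macrophages, which are primary macrophages grown from marrow. Marrow of C57BL/6 mice aged 5 to 6 weeks was grown for 7 days in 10 ng/mL M-CSF, followed by 1 day of IFN-γ (M1) or IL-4 (M2), each at 20 ng/mL. Both groups shared the M-CSF culture and a 2-day hold in serum-free medium before the vesicles were pelleted by ultracentrifugation. Each group has 1 library, so no error between replicates can be given and each difference compares 2 libraries, not the 2 conditions. Neither the number of animals nor any pooling is given in the sources used here.

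The region lies on distal mouse chromosome 12. Its protein-coding genes Dlk1, Rtl1 and Dio3 are expressed from the paternal chromosome, and its long noncoding RNAs Meg3, Rtl1 antisense, Rian and Mirg from the maternal one. The noncoding RNAs carry the miRNA hairpins, which are thought to be cut from long shared transcripts, so many hairpins depend on 1 imprinting control region. The miRNAs are known from embryo, placenta, brain and mesenchymal cells and from blood stem cells. The hairpins antisense to Rtl1 make miRNAs fully complementary to the Rtl1 transcript, which they direct to cleavage. The large group from miR-379 to miR-410 is known for roles in neuron shape and in metabolism around birth.

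The mature sequences below are those of the most abundant miRNAs of the region, of the only compared member with the higher value in the M2 library, of a member with about 1 read in the M2 library, and of 2 pairs of near-copies. They are written 5′ to 3′ with the seed, bases 2 to 8, in capitals, and come from RefSeq on GRCm38.p6, where 39 of the 42 members matched.
mmu-miR-127-3p: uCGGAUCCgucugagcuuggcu
mmu-miR-379-5p: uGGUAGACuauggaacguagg
mmu-miR-382-5p: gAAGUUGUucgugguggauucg
mmu-miR-412-5p: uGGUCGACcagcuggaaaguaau
mmu-miR-409-3p: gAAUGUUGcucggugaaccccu
mmu-miR-493-5p: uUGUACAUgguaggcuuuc
mmu-miR-369-3p: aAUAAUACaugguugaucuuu
mmu-miR-431-5p: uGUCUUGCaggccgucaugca
mmu-miR-379-3p: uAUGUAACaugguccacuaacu
mmu-miR-411-3p: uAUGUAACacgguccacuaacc
mmu-miR-381-3p: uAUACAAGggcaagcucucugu
mmu-miR-300-3p: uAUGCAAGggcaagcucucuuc

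The prefix mmu marks mouse entries. The values are log2(level + 1) in deposited units, and levels below are the linear values recovered from them. Comparison required a level of 10 units in either library, and a miRNA counted as higher where its deposited values were 1 or more apart, which is 2-fold. Folds of single miRNAs are on this log2(level + 1) scale, which understates the change of low miRNAs, unless given as a ratio of reads. At low levels 1 read was worth 0.80 units in the M1 library and 1.22 units in the M2 library, and a level of 0 allows up to 3 reads, or 2.40 and 3.67 units, for counting error only. Levels summed to 686353 units in the M1 library and 734637 in the M2 library. The 337 miRNAs compared in the series had a median M1-over-M2 log2 ratio of 0.04. The macrophage and myeloid markers fixed for the label, mmu-miR-223-3p, both arms of miR-142a, mmu-miR-155-5p, mmu-miR-146a-5p and mmu-miR-21a-5p, were all above 0 and held 21.5% of the M1 total and 13.4% of the M2 total. Without mmu-miR-146a-5p, the most abundant of them, they held 3.91% and 6.53%. Of the 6, mmu-miR-223-3p, mmu-miR-142a-3p and mmu-miR-21a-5p had the higher value in the M2 library.

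The cluster was higher in the M1 library. Its 42 members summed to 3273 units there and 1002 units in the M2 library, or 0.477% and 0.136% of the library. Of the 21 compared members 15 were 2-fold or more higher in the M1 library, 0 in the M2 library and 6 lay within 2-fold. Over all miRNAs compared, 26.1% were 2-fold or more higher in the M1 library and 22.8% in the M2 library. The log2 ratios of the compared members ran from -0.33 to 3.67, with a median of 1.32. The ratio was above 0 for 20 of the 21, against 50.7% of all miRNAs compared. Over all 42 members, with no minimum, 30 had the higher value in the M1 library, 3 had it in the M2 library and 9 were equal at 0. Of the 30, 10 had an M2 value below the worth of 1 read, as did 175 of the 747 miRNAs of the series above 0. With no minimum the median log2 ratio was 1.32 over the 33 members above 0 and 0.16 over those 747. The share of all miRNAs with the higher M1 value was not counted at that setting.

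Of the 21 compared members 8 passed the minimum through the M1 library only, so these had to lean that way, and 0 passed through the M2 library only. The other 13 reached 10 units in both libraries. Among those 13, 9 were 2-fold or more higher in the M1 library and 0 in the M2 library, with a median log2 ratio of 1.22. The same requirement left 246 miRNAs of the series, of which 22.4% were 2-fold or more higher in the M1 library and 15.0% in the M2 library, with a median of 0.05. Since vesicles were sequenced in bulk, fewer vesicles carrying these miRNAs and fewer copies per vesicle cannot be told apart.

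**Figure D1:**
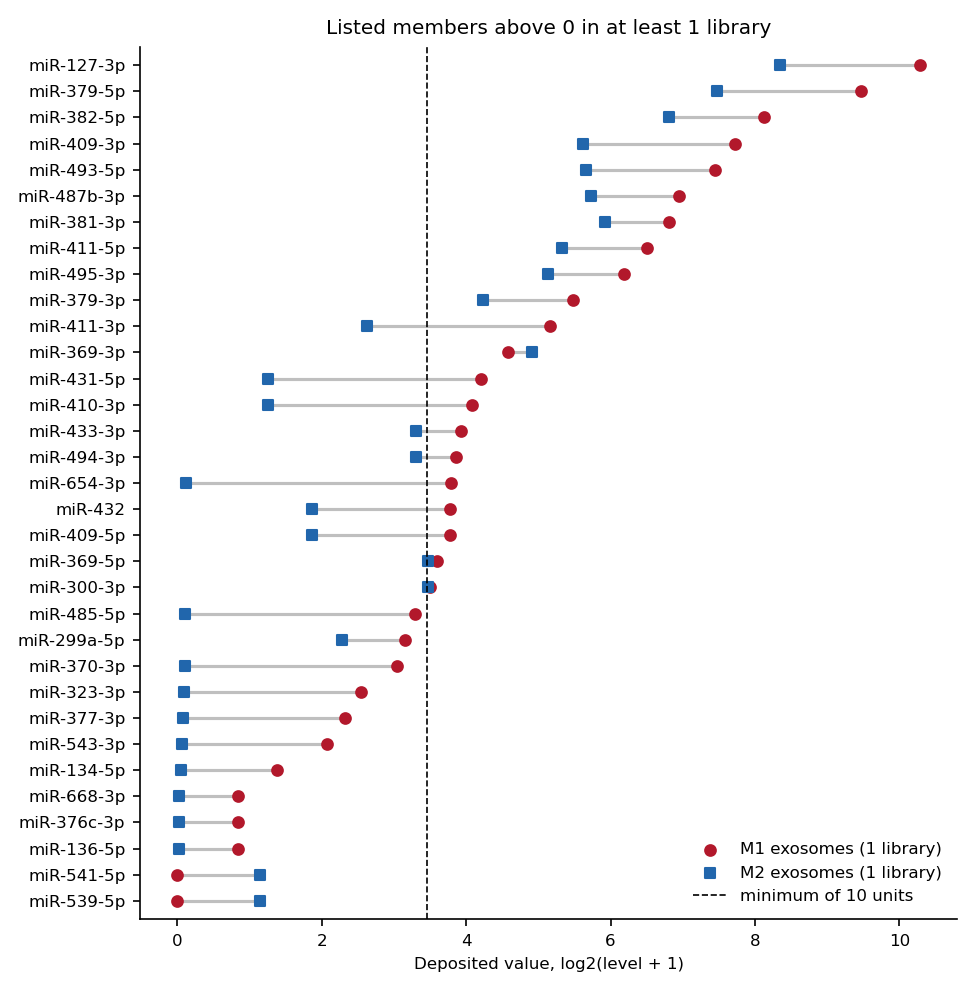
Deposited log2(level + 1) value of each member above 0 in at least 1 library, in the M1 library (circles) and the M2 library (squares), 1 library each, ordered by the M1 value. The M1 value is the higher one for 30 members, and the dashed line marks the minimum of 10 units.

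The hairpins antisense to Rtl1 gave the most abundant member. mmu-miR-127-3p, which represses Bcl6 in macrophages besides cutting the Rtl1 transcript, had a deposited log2 value of 10.28 in the M1 library and 8.35 in the M2 library. These are levels of 1245 and 326 units, a 3.81-fold excess in the M1 library. It ranked 52nd by level in the M1 library and 100th in the M2 library. Its hairpin, at chr12:109592846-109592915 (GRCm38), lies in an exon of Rtl1 on the opposite strand.

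mmu-miR-433-3p, a repressor of the deacetylase Hdac6, differed less. It had 14.3 units in the M1 library and 8.90 in the M2 library, a log2 ratio of 0.62. mmu-miR-431-5p, which acts in axon and muscle regeneration, had 17.5 units in the M1 library and 1.38 in the M2 library, or about 22 reads and 1 read. Allowing for the worth of a read, that is a ratio of 14.4 with an exact 95% interval of 2.33 to 594. Intervals here are Clopper-Pearson, use read numbers estimated from the low-level steps, and cover counting error only, since reads without molecular identifiers are not independent molecules.

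mmu-miR-432 had 12.7 units in the M1 library and 2.64 in the M2 library, about 16 reads and 2 reads, a ratio of 5.24 (exact 95% interval 1.23 to 46.9). Of these 4 compared members antisense to Rtl1, 3 were 2-fold or more higher in the M1 library, with a median log2 ratio of 1.92. All but mmu-miR-127-3p passed the minimum through the M1 library only, so the count and the median lean that way by construction. mmu-miR-136-5p had 0.80 units, the worth of 1 read, in the M1 library and less than 1 read in the M2 library. Both arms of miR-434, which comes from the same stretch and also targets Rtl1, were listed at 0 in both libraries.

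Upstream of Rtl1, mmu-miR-493-5p was the compared member. It had a log2 value of 7.45 in the M1 library and 5.66 in the M2 library, or 173 and 49.4 units, and was 3.46-fold higher in the M1 library. Its neighbours mmu-miR-337-5p and mmu-miR-665-3p were at 0 in both libraries. In an intron of Rian, mmu-miR-370-3p, which targets the fatty acid oxidation enzyme Cpt1a, had 7.22 units in the M1 library and 0.073 in the M2 library. The M2 value is below the worth of 1 read. The M1 level, which missed the minimum, was 1.97 times the level of 3 reads in the M2 library. Such a ratio to 3 reads is one of plain levels and leaves out the counting error of the M1 reads.

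The stretch from miR-379 to miR-410 held 16 of the 21 compared members, 11 of them 2-fold or more higher in the M1 library, with a median log2 ratio of 1.23. Of the 11 members among these with 10 units in both libraries, 7 were 2-fold or more higher, with a median of 1.17. mmu-miR-379-5p, the leading member of the group, had a log2 value of 9.47 in the M1 library and 7.48 in the M2 library. These are 708 and 177 units, 3.98-fold apart. mmu-miR-382-5p followed with 279 and 111 units, a 2.49-fold excess in the M1 library. mmu-miR-409-3p, near the far end of the stretch, had 211 and 48.1 units and was 4.31-fold higher. These 3, with mmu-miR-127-3p and mmu-miR-493-5p, were the 5 most abundant members in the M1 library.

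Members of middling level showed smaller excesses. mmu-miR-487b-3p had 122 units in the M1 library and 51.9 in the M2 library, 2.32-fold apart. mmu-miR-411-5p had 89.5 and 39.3 units, 2.25-fold apart, and mmu-miR-495-3p had 72.1 and 34.2 units, 2.08-fold apart. All 3 were past the 2-fold line by little. mmu-miR-381-3p, which acts with miR-134 and miR-329 in the outgrowth of dendrites, had 112 and 59.5 units and lay just inside it, with a log2 ratio of 0.90. mmu-miR-379-3p had 43.6 and 17.8 units, 2.38-fold apart.

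At the low end the values rested on few reads. The 5 members named here passed the minimum through the M1 library only, so they had to lean that way. mmu-miR-411-3p had 34.9 units in the M1 library and 5.18, about 4 reads, in the M2 library, a 5.81-fold excess. mmu-miR-410-3p had 15.9 and 1.38 units, about 20 reads and 1 read, a ratio of 13.1 (exact 95% interval 2.09 to 543). mmu-miR-409-5p had the same values as mmu-miR-432, and so the same ratio and interval. mmu-miR-654-3p had 12.8 units in the M1 library and less than 1 read in the M2 library. Its M1 level was 3.49 times the level of 3 reads in the M2 library, with the counting error of the M1 reads left out. That ratio still lies above the median over compared members, a log2 ratio of 1.32, so using it for mmu-miR-654-3p could not move the median. mmu-miR-494-3p had 13.5 and 8.90 units, a log2 ratio of 0.55.

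The hairpin of miR-369 and mmu-miR-300-3p differed from that pattern. mmu-miR-369-3p, known to act on the AU-rich element of the TNF mRNA and to switch to activating translation in serum-starved cells, had 22.9 units in the M1 library and 29.0 in the M2 library. Its log2 ratio of -0.33 was the only one below 0 among the compared members, and lay within 2-fold. The other arm, mmu-miR-369-5p, had 11.1 and 10.1 units, a log2 ratio of 0.12. mmu-miR-300-3p had 10.3 and 10.1 units, a log2 ratio of 0.02. The hairpins on either side of miR-369, those of miR-412 and miR-410, each gave a compared arm that was 2-fold or more higher in the M1 library. Of these arms mmu-miR-412-5p had 10 units in both libraries. The other, mmu-miR-410-3p, passed the minimum through the M1 library only, so it had to lean that way.

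Of the 12 members under the minimum, 9 had M2 values below the worth of 1 read. Among them mmu-miR-485-5p, which acts on the synaptic vesicle protein Sv2a, had 8.82 units in the M1 library. That is 2.40 times the level of 3 reads in the M2 library, with the counting error of the M1 reads left out. mmu-miR-323-3p had 4.83 units, mmu-miR-377-3p 4.03 and mmu-miR-543-3p 3.23 in the M1 library. mmu-miR-134-5p, a neuronal miRNA that limits dendritic spine size through Limk1, had 1.61 units, and mmu-miR-668-3p and mmu-miR-376c-3p had 0.80. mmu-miR-299a-5p had 7.94 and 3.86 units, about 10 and 3 reads, a ratio of 2.18 whose exact 95% interval of 0.562 to 12.3 spans 1. Only mmu-miR-539-5p and mmu-miR-541-5p were at 0 in the M1 library and above 0 in the M2 library, each at the worth of 1 read. The members at 0 in both libraries beside those already named were mmu-miR-380-3p, mmu-miR-329-3p, mmu-miR-376b-3p, mmu-miR-376a-3p and mmu-miR-154-5p. The miR-376 members are known for A-to-I editing of their seed in brain. A level of 0 shows only that a miRNA was not detectable at this depth.

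The wider region was then taken by position. RefSeq and the files together placed 117 mature miRNAs from 61 hairpins between Dlk1 and Dio3, a stretch of 829 kb, and 64 of them were at 0 in both libraries. The 22 compared came from 18 hairpins within 164 kb, and 21 of the 22 were listed members. The remaining one was mmu-miR-412-5p, with a log2 value of 7.85 in the M1 library and 5.79 in the M2 library. At 230 and 54.4 units it was 4.16-fold higher in the M1 library, and only mmu-miR-127-3p, mmu-miR-379-5p and mmu-miR-382-5p were above it in the M1 library within the region. Its hairpin, at chr12:109743289-109743368, lies in an exon of Mirg on the same strand.

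By position, 1 of 1 compared miRNAs before Rtl1, 3 of 4 antisense to Rtl1 and 12 of 17 from miR-379 to miR-410 were 2-fold or more higher in the M1 library. The median log2 ratios of the last 2 stretches were 1.92 and 1.25, and their ranges, 0.62 to 2.96 and -0.33 to 3.67, overlapped. Between Rtl1 and miR-379, 7 miRNAs were listed and 0 were compared. Among miRNAs with 10 units in both libraries, the 2 stretches held 1 and 12, of which 1 and 8 were 2-fold or more higher in the M1 library. On the Rtl1 side this rests on mmu-miR-127-3p alone.

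**Figure D2:**
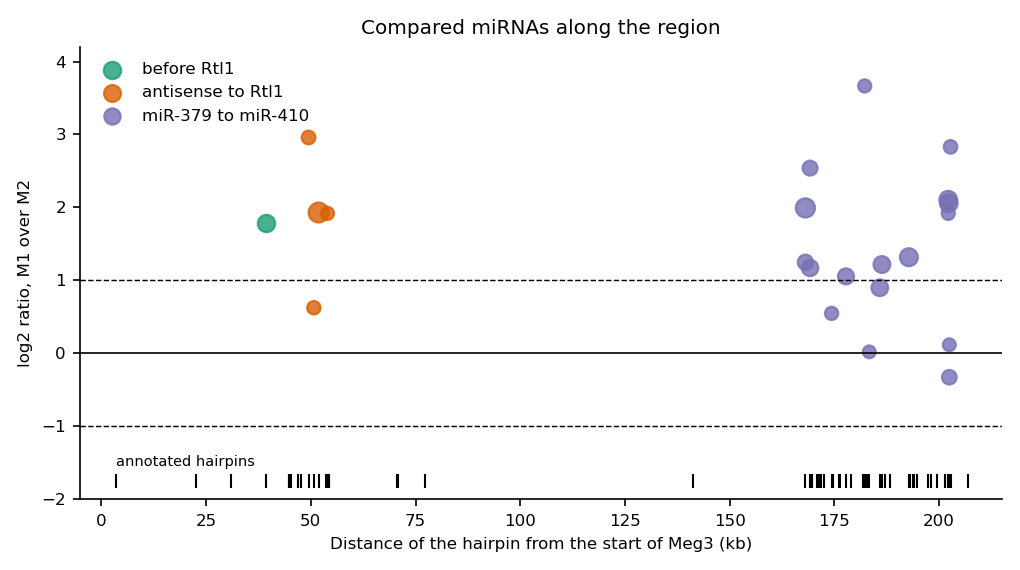
log2 ratio of M1 over M2 for the 22 compared miRNAs of the region against the distance of their hairpin from the start of Meg3, coloured by stretch, with point area rising with the logarithm of the higher level. Ticks mark annotated hairpins (Mir1247, near Dio3, lies beyond the axis), dashed lines mark 2-fold, and 16 of the 22 points lie above the upper one.

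The 2 arms of a hairpin are cut from the same precursor. In the hairpins below, written 5′ to 3′ from RefSeq on GRCm38.p6, capitals mark the mature arms. Mir379 (chr12:109709060-109709125) and Mir411 (chr12:109710175-109710256) are neighbours with similar 3p arms. Mir409 (chr12:109743158-109743236) and Mir412 (chr12:109743289-109743368) are neighbours with opposite leading arms. All 4 lie on the plus strand.
Mir379: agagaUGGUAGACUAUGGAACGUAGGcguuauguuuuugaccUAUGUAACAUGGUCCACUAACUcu
Mir411: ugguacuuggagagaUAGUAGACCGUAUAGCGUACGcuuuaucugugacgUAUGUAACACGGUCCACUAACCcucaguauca
Mir409: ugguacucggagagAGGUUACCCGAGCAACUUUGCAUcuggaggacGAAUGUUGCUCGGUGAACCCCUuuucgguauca
Mir412: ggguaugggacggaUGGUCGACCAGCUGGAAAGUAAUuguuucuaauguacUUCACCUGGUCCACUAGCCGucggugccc

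Of 17 hairpins with both arms listed and at least 1 compared, the 3p arm was the more abundant in 11 and the 5p arm in 6 in the M1 library, and the leading arm was the same in the M2 library for all 17. For Mir410 the M2 lead rests on about 1 read in each arm, and for Mir654 on a value below the worth of 1 read. That of Mir431 rests on about 1 read, with the other arm below the worth of 1 read. The leading arm of Mir379 was 16.2 times the other in the M1 library and 9.96 times in the M2 library. For Mir409 the corresponding values were 16.5 and 18.3, and for Mir382 they were 50.1 and 42.8. Both arms were compared for 4 hairpins. The 2 arms of Mir409 had log2 ratios of 1.92 and 2.11, those of Mir379 1.99 and 1.25, those of Mir369 0.12 and -0.33, and those of Mir411 1.17 and 2.54. The arms of Mir369 were thus close to one another in ratio, and those of Mir379 and Mir411 lay further apart. The values of the Mir409 arms were also close, but the 5p arm had 2.64 units, about 2 reads, in the M2 library. That arm passed the minimum through the M1 library only, and the interval given above for its ratio is wide. Whether the Mir409 arms differ in ratio therefore cannot be decided. The widest gap, that of Mir411, rests on the 5.18 units of the 3p arm in the M2 library. By arm, 6 of 7 compared 5p members and 8 of 13 compared 3p members were 2-fold or more higher in the M1 library, and 4 of 5 and 5 of 8 of those with 10 units in both libraries.

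**Figure D3:**
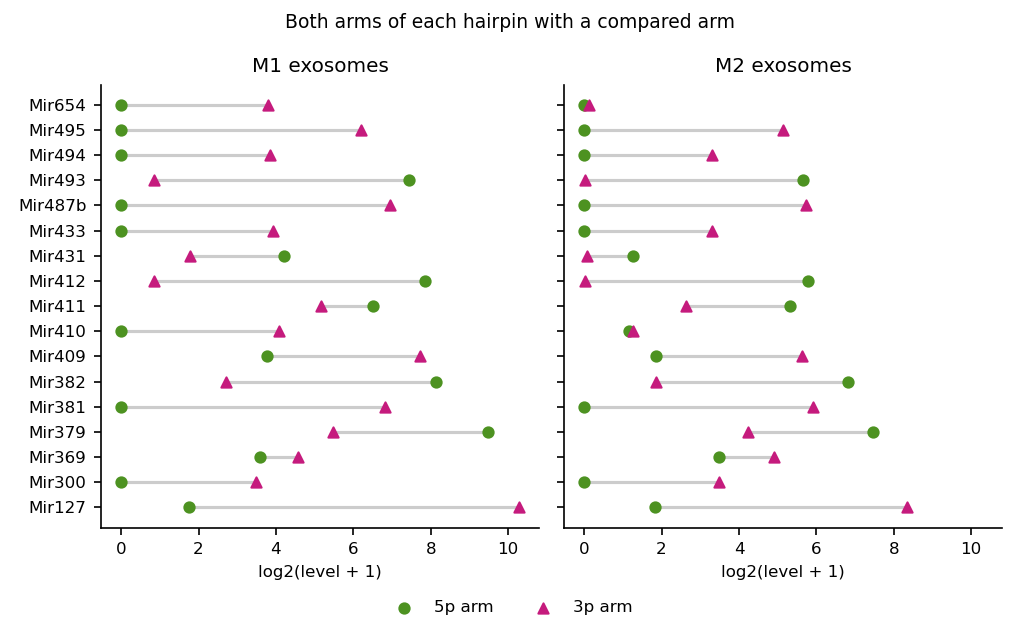
Deposited log2(level + 1) value of the 5p arm (circles) and 3p arm (triangles) of the 17 hairpins with both arms listed and at least 1 compared, in the M1 library (left) and the M2 library (right), 1 library each. The same arm leads in both panels for all 17, in the M2 library on about 1 read or less for Mir410, Mir431 and Mir654.

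The seeds of the compared members were mostly their own. Of the 20 compared members with a sequence, 14 shared their seed with no other miRNA of the files that had one. mmu-miR-379-3p and mmu-miR-411-3p had the same seed and differed by U10C and U22C, counted from the 5′ end of mmu-miR-379-3p. Their levels were close in the M1 library, at 43.6 and 34.9 units, and further apart in the M2 library, at 17.8 and 5.18 units. mmu-miR-381-3p and mmu-miR-300-3p differed by A4G, G21U and U22C, counted from the 5′ end of mmu-miR-381-3p, and so by 1 base of the seed. The authors' rule for reads that fit both of a pair is not given in the sources used here, so single values of these pairs are uncertain. Of the 20, 12 began with U (60%), against 44.7% of the 293 compared miRNAs of the series with a sequence, and the median GC content was 46.5% against 47.6%.

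A few members held most of the cluster's level, and largely the same ones in both libraries. mmu-miR-127-3p made up 38.0% of the members' level in the M1 library and 32.5% in the M2 library, and mmu-miR-379-5p 21.6% and 17.7%. The 8 most abundant members, which were the same 8 in both libraries, held 89.8% and 86.1%. The share of mmu-miR-369-3p was 0.70% in the M1 library and 2.90% in the M2 library. Across the 21 compared members the Spearman correlation of the M1 and M2 values was 0.82, a description across miRNAs that share the 2 libraries and are no independent replicates.

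**Figure D4:**
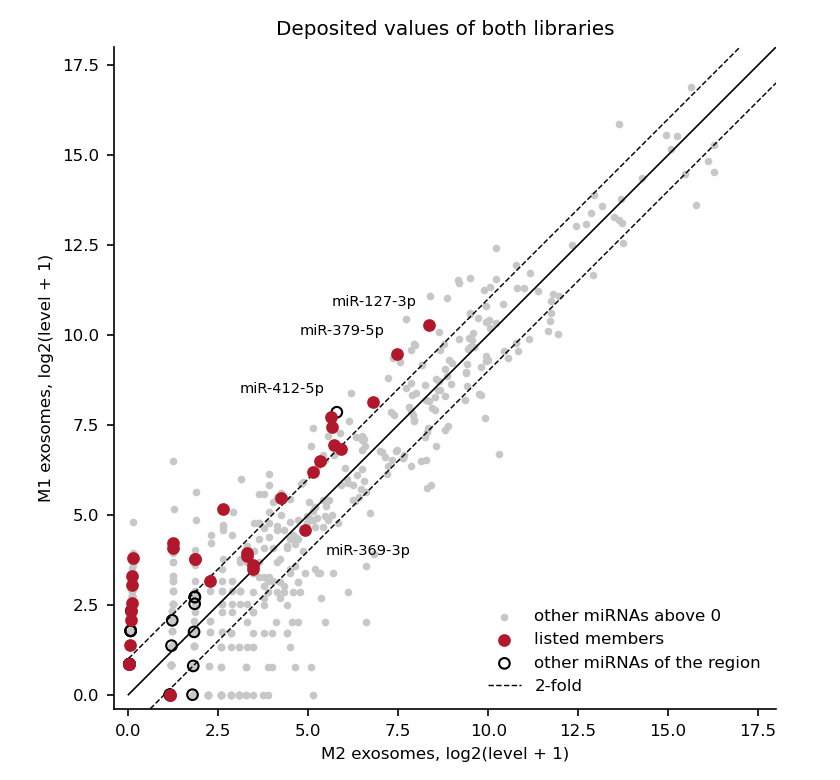
Deposited log2(level + 1) values in the M1 library against the M2 library for listed members (filled), other miRNAs of the region (open) and all other miRNAs above 0 (grey), 1 library each. The solid line marks equal values and the dashed lines 2-fold. Of the 21 compared members 20 lie above the solid line.

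Other lists were set beside the members. The other large imprinted miRNA cluster of the mouse, in the gene Sfmbt2 on chromosome 2, had 5 compared miRNAs, of which 0 were 2-fold or more higher in the M1 library and 2 in the M2 library, with a median log2 ratio of -0.79. Of these 5, 3 passed the minimum through the M2 library only, both of those counted as higher among them, and 1 through the M1 library only. mmu-miR-669c-5p, its most abundant one and the only one with 10 units in both libraries, had 91.8 units in the M1 library and 159 in the M2 library and lay within 2-fold. Near-copies are common in that cluster, so single values there are uncertain. The summed level of the Sfmbt2 list was 132 units in the M1 library and 270 in the M2 library, opposite in direction to the 3273 and 1002 units of the Dlk1-Dio3 members. The difference between the clusters was not tested, since each group has 1 library.

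Markers of other cell types were set beside the cluster in the same way. All 9 stromal and fibroblast markers were above 0 in both libraries, and their summed level was 5450 units in the M1 library and 1929 in the M2 library. Without mmu-miR-10b-5p, the most abundant of them, the sum was 2366 and 1207 units. For mmu-miR-145a-3p and mmu-miR-214-3p the M2 value was below the worth of 1 read. Of the 8 compared, 5 were 2-fold or more higher in the M1 library, with a median log2 ratio of 1.68. Of the 6 stromal markers with 10 units in both libraries, 3 were, with a median log2 ratio of 1.29. The other 2 compared passed the minimum through the M1 library only, so they had to lean that way. mmu-miR-10b-5p had 3084 and 722 units and mmu-miR-199a-3p 850 and 245 units, while mmu-miR-143-3p, the classical smooth muscle and fibroblast miRNA, had 395 and 498 units. All 5 erythroid markers were above 0, at 7948 and 1498 units in sum. The 3 hepatocyte markers summed to 60272 and 13050 units, nearly all of it mmu-miR-122-5p, without which the sum was 509 and 399 units. Their median log2 ratio was 0.35. Of the 4 neuronal markers mmu-miR-124-3p, which defines neurons, was at 0 in both libraries. The neuronal sum was 462 and 1527 units, and 359 and 263 units without mmu-miR-9-5p. That miRNA had 103 units in the M1 library and 1264 in the M2 library, a log2 ratio of -3.61. mmu-miR-128-3p had 333 and 251 units and mmu-miR-129-5p 26.2 and 11.5 units, so 2 of the 3 detected neuronal markers had the higher value in the M1 library. The part of these cell types in the values of the cluster was not tested.

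**Figure D5:**
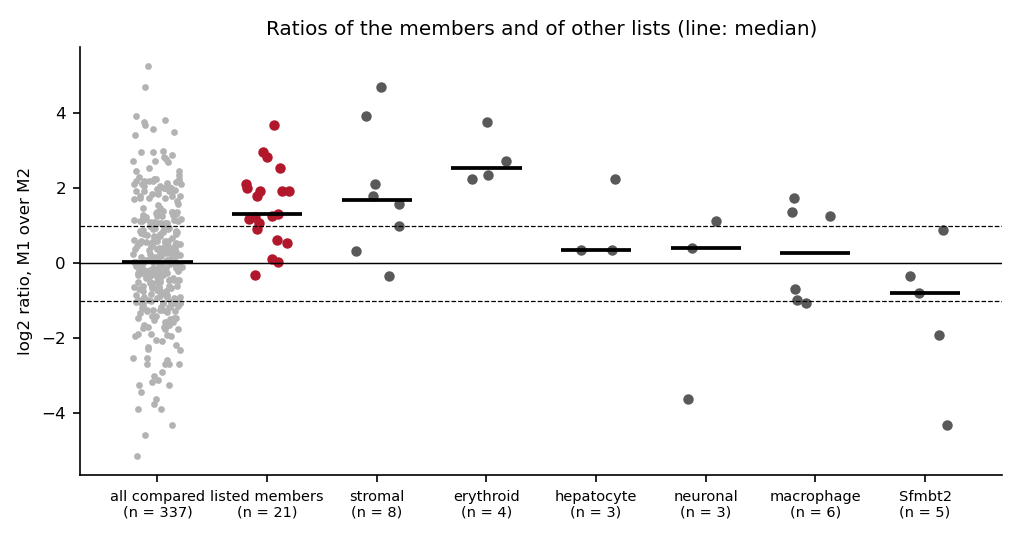
log2 ratio of M1 over M2 for all 337 compared miRNAs, the 21 compared members and the compared miRNAs of 6 other lists, 1 point per miRNA with the median as a line. The medians of the members, the stromal list and the erythroid list lie above the upper dashed line, which marks 2-fold, and that of the Sfmbt2 list lies below 0. Of the members, the stromal list and the erythroid list, 8, 2 and 1 entries passed the minimum through the M1 library only. With 10 units in both libraries their medians are 1.22, 1.29 and 2.36.

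The promoter of Meg3, the first of the maternal noncoding RNAs, is shown at the first of its 2 annotated starts. The sequence spans 250 bases before to 50 after the annotated start (RefSeq, GRCm38.p6, chr12:109540746-109541045, plus strand), with motif matches in capitals.
Meg3 promoter: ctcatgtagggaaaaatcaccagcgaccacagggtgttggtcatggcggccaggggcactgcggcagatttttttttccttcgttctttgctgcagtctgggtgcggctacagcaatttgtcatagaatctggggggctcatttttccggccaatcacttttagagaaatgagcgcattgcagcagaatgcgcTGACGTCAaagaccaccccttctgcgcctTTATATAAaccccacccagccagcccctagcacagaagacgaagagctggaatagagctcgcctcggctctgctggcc
Both strands were searched. The cAMP response element TGACGTCA had 1 match, and 1.79% of the 32851 promoters of the same length held it. The TATA-box letters TATATAA had 2 matches, which overlap on opposite strands, and were in 3.24% of promoters. Neither motif had a match at the other annotated Meg3 start (chr12:109545148-109545447) or in the promoters of Rian and Mirg. These are matches of letters within this window, and the libraries do not measure transcription.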

How the data were processed

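Small RNA libraries were made from 500 ng of exosome RNA with a NEBNext small RNA kit, per the labels' protocols, 1 library for each of the M1 and M2 groups. Per the submitters' processing notes, the tools included Bowtie2 and bedtools and the build was mm10, with no version. Read assignment, strand use and normalization were not given in the sources used here. Values as the authors deposited them lie on a log2 scale, read from the values themselves. Converted back (2 to the power of the value, minus 1), low levels fell on even steps, taken as 1 read. In M1 exosomes 99.4% of 175 low miRNAs were whole multiples within 0.1 step, and in M2 exosomes 95.3% of 129. M2 values below the worth of 1 read (175 miRNAs, 0.03 to 0.135) moved with the M1 value, so the libraries were taken as normalized together. Library read totals are unknown.

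The ratio is the M1 minus the M2 value. With 1 library per group no test of the conditions was made. Members, lists and the naming rule (every compared miRNA of the region named, every member accounted for) were chosen with earlier results of these data known. Hairpins were placed with RefSeq on GRCm38.p6 and gene context with GENCODE M21, the assembly called mm10. The comparison was run on simulated libraries with changes larger than the 2-fold threshold and with counting error only. Calls near 2-fold and variation between libraries were not tested by it. Alternatives changed the minimum, pseudocount, scaling, fold and arms counted. Python 3.11.15, numpy 2.4.6, pandas 2.3.3, scipy 1.17.1 and matplotlib 3.10.9 were used.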

Additional observations from a re-analysis of the deposited data

How the results depend on the processing

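The counts and medians of the members and of the region kept their direction under every alternative run, and the counts depended on the minimum and the fold. With no minimum, 2 of 33 members and 6 of 53 miRNAs of the region passed 2-fold towards the M2 library. Towards the M1 library 21 of 33 and 26 of 53 passed it. The region's median log2 ratio was then 0.90, and that of all 747 miRNAs above 0 was 0.16. The number passing towards the M1 library was 6 of 7 members and 7 of 8 miRNAs of the region with a minimum of 100 units in either library. Of these 8, mmu-miR-493-5p, mmu-miR-409-3p, mmu-miR-487b-3p, mmu-miR-381-3p and mmu-miR-412-5p reached it in the M1 library only, so they had to lean that way. With 10 units in both libraries the number passing was 9 of 13 and 10 of 14. Past 4-fold, where fewer miRNAs can pass, it was 5 of 21 and 6 of 22. Shares over all miRNAs were counted only for 2-fold, with 10 units in either library or in both. Without mmu-miR-127-3p and mmu-miR-379-5p the members held 0.192% of the M1 total and 0.0679% of the M2 total. Dividing each library by its sum moved the median of all compared miRNAs from 0.04 to 0.13. No paired analysis was possible because the 2 groups hold 1 library apiece, and leaving one out was not possible either. Depth limits the members under 10 units, most of which rest on fewer than 3 reads in the M2 library.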

Other observations

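Some miRNAs of the region outside the list of members are given here, chosen after their values were seen. Of the 117 miRNAs of the region 53 were above 0, and 19 of these had M2 values below the worth of 1 read and were above 0 in the M1 library. The reverse, 0 in the M1 library and above 0 in the M2 library, was seen for mmu-miR-299b-3p, mmu-miR-329-5p and mmu-miR-410-5p besides the members mmu-miR-539-5p and mmu-miR-541-5p, at levels of 1.22 to 2.44 units, which are 1 or 2 reads. Of the 747 miRNAs of the series above 0, 175 were of the first kind and 129 of the reverse. mmu-miR-1197-5p and mmu-miR-1197-3p, from the hairpin just before miR-323, had 3.19 and 4.03 units in the M1 library. mmu-miR-758-3p, mmu-miR-496a-3p and mmu-miR-431-3p each had 2.42 units there. mmu-miR-136-3p had 0.74 units in the M1 library and 2.49 in the M2 library, while mmu-miR-3071-5p, annotated on the opposite strand of the same place, had 1.57 and 1.30 units. The sequences of mmu-miR-299a-5p and mmu-miR-299b-5p, annotated on opposite strands, overlap with 0 substitutions, and the entries had 7.94 and 5.57 units in the M1 library. The rule by which reads were divided between them was not given in the sources used here.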
